A study of Mus musculus with 10 samples.

Results

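A set of 8 genes of cholesterol synthesis and its control was followed in mouse embryonic stem cell (ESC) lines. They were Srebf2 and Insig1, which regulate the pathway, and the enzyme genes Hmgcs1, Idi1, Fdft1, Sqle, Lss and Cyp51. The 8 genes were chosen by symbol, as the row of the gene table with the matching mouse identifier, and each symbol had 1 row among the 20206 genes of the table. The RNA of 10 ESC lines was sequenced. In 5 lines the blastocyst came from a mother on a low protein diet (LPD, 9% casein), and in the other 5 from a mother on a normal protein diet (NPD, 18% casein). The comparison asks whether the diet of the mother before implantation was followed by a difference in these genes in the lines. The mothers were wild-type C57Bl/6 females of 7 to 9 weeks, each kept on its diet until embryonic day 3.5. All lines of both groups are labelled male and wild-type, were derived on a layer of mouse embryonic fibroblasts with leukaemia inhibitory factor and serum replacement, and came from different mothers. RNA was taken from cultures without fibroblasts. Lines keep the numbers of the labels, which are 1, 4, 6, 20 and 40 for LPD and 8, 15, 21, 36 and 51 for NPD. A line is therefore 1 embryo and 1 mother, and the diet acted on the mother and not on the culture from which RNA was taken.

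Cholesterol is built from acetyl-CoA through mevalonate, isopentenyl diphosphate, farnesyl diphosphate, squalene and lanosterol. SREBP-2, the product of Srebf2, is a transcription factor held in the membrane of the endoplasmic reticulum. When sterols are plentiful, the protein made from Insig1 keeps it there, and when they are scarce SREBP-2 is carried to the Golgi, cut, and sent to the nucleus, where it raises transcription of the enzyme genes and also of Srebf2 and Insig1 themselves. The enzyme genes and Insig1 are therefore used as readouts of sterol demand, while the amount of Srebf2 RNA shows only part of the control.

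Values are the authors' estimated read counts per gene after DESeq2 normalization, and are called normalized values here. They totalled between 16398700 and 18325000 in a line. Relative depth, estimated from the value that 1 read was worth, was 20475800 to 23054100 read equivalents in the NPD lines and 5810100 to 24063700 in the LPD lines. LPD lines 4, 6 and 40 were at 5810100, 12455300 and 11245900, below every NPD line. The median was 12455300 in LPD and 22454100 in NPD, so depth went in part with diet. Summed pluripotent stem cell markers (Pou5f1, Nanog, Sox2, Esrrb, Zfp42, Klf4, Dppa5a and Tdgf1) were at 94641 to 122982 in the LPD lines and 87619 to 121089 in the NPD lines, so the labelled cell type was expressed in every line. Ddx3y, a gene of the Y chromosome, stood at 7.70 in NPD line 15 and 174 in LPD line 4, against 1110 to 1493 in the other 8 lines. X-linked genes (334, log2 scale) were also higher in NPD line 15, where their median deviation was 0.49. In LPD line 4 it was 0.001. NPD line 15 stands apart from the labelled sex in both respects, and LPD line 4 in its low Ddx3y alone, the cause of which was not tested. Results are given with and without these 2 lines where that changes a call. None of the 8 genes lies on the X or Y chromosome.

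All 8 are protein-coding genes. On the GRCm38 build, Srebf2 lies at chr15:82147181-82205379 on the plus strand and Insig1 at chr5:28071363-28078662 on the plus strand. Hmgcs1 (chr13:119690379-119708260) and Idi1 (chr13:8885501-8892451) are both on chromosome 13 and on the plus strand, and Fdft1 is at chr14:63145150-63179578 on the minus strand. Sqle is at chr15:59315077-59331192 on the plus strand, Lss at chr10:76531588-76557138 on the plus strand and Cyp51 at chr5:4081145-4104746 on the minus strand. The 8 genes share no position. Since the deposited value covers the whole gene, it does not separate exons or transcripts.

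Per kilobase of the longest annotated coding transcript, Hmgcs1 had the highest level, 2011 ± 408 normalized units per kb (SD over 10 lines), followed by Srebf2 at 1689 ± 131. Insig1 (1243 ± 291) and Sqle (1206 ± 163) came next and were not separated, since Insig1 was above Sqle in only 6 of 10 lines. Idi1 was at 965 ± 148, Cyp51 at 855 ± 157 and Fdft1 at 746 ± 107 on this per-kb scale. Lss was lowest at 370 ± 54.2, below Fdft1 in 10 of 10 lines. Hmgcs1 was above Srebf2 in 9 lines, Idi1 above Cyp51 in 9 and Cyp51 above Fdft1 in 8, so the order of each of these neighbours was not the same in every line.

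The promoters are shown for 4 genes because the control of the pathway is read from them. RefSeq sequence on GRCm38.p6, from 250 bases before to 50 bases after the RefSeq start, was matched for 6 of the 8 genes, all but Sqle and Fdft1. All motif distances are counted from this RefSeq start. For the 4 genes printed it is not the same base as the start of the GENCODE gene positions given above. Both strands were searched for a sterol regulatory element in a strict form, TCACNCCA, and a loose form, TCACNNCA, which includes the strict one, and for the CCAAT box (ATTGG on the other strand) and the GC box GGGCGG. These motifs are the binding sequences of SREBP-2 and of NF-Y and Sp1, factors known to act with it, and the strict and loose forms were chosen with the promoters in view. Stretches around the motifs are printed 5′ to 3′ on the strand of the gene, with the loose sterol element and the CCAAT box in capitals.
Hmgcs1, chr13:119690174-119690263, plus strand: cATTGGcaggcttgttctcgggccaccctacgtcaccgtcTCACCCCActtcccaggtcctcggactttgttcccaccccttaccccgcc
Srebf2, chr15:82147067-82147156, plus strand: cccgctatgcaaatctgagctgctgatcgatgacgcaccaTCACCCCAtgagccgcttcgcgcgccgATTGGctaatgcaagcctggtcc
Cyp51, chr5:4104747-4104825, minus strand: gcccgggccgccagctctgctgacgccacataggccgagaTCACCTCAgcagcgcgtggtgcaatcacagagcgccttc
Lss, chr10:76531503-76531587, plus strand: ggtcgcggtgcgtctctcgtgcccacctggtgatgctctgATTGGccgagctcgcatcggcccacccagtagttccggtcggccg

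Hmgcs1 and Srebf2 carry the strict sterol element, 137 and 162 bases before the RefSeq start, each with a CCAAT box close by. Cyp51 carries the loose form, 88 bases before the start. Srebf2 also has a match to the loose form alone, on the other strand, 220 bases before the start and outside the printed stretch. In Lss, as in Insig1 and Idi1, neither form was found in the window, and the Lss stretch shows its CCAAT box, 62 bases before the start. Of all 32851 promoters of the same length, 4.36% hold the strict form and 13.8% the loose form. CCAAT was found in 6 of 6 and in 37.4% of all promoters, and GGGCGG in 6 of 6 and in 35.7%. A match is a description of letters and not a measured binding site, and its absence says nothing about the factor.

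**Figure D1:**
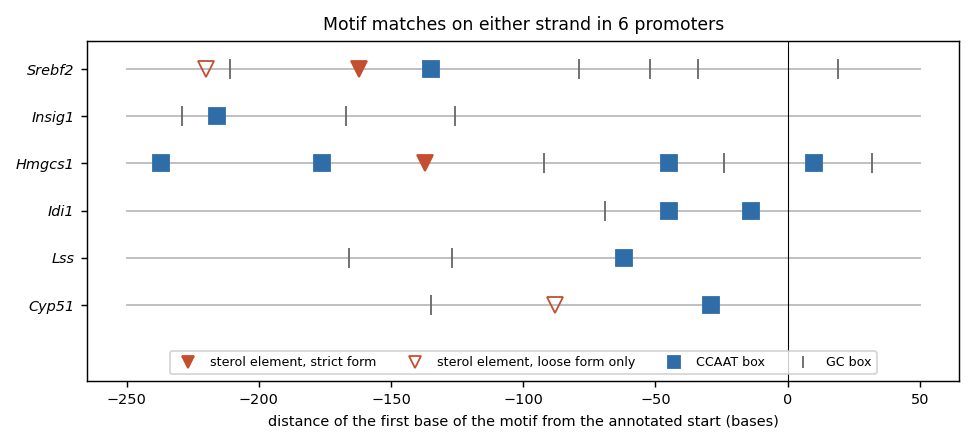
Motif matches on either strand in the promoters of 6 genes. The horizontal axis is the distance in bases of the motif's first base from the annotated RefSeq start. Filled triangles are the strict sterol element, open triangles places where only the loose form matches, squares CCAAT boxes and ticks GC boxes. Hmgcs1 and Srebf2 hold the strict element, Cyp51 the loose form, and all 6 genes a CCAAT box and a GC box. Srebf2 holds a loose-only match as well.

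The 8 genes all had a higher mean in the LPD lines than in the NPD lines, by 0.07 to 0.38 on the log2 scale, but none passed a test adjusted over all genes. Lss and Cyp51, the enzymes that make and then demethylate lanosterol, differed most. LPD over NPD was 1.26-fold for Lss and 1.30-fold for Cyp51. Insig1 had a difference of similar size with a much wider spread, and Srebf2 the smallest difference of the 8. In bulk RNA, fewer cells expressing a gene and less RNA per cell cannot be told apart.

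Of the regulators, Srebf2 was at 8780.2, 8432, 8625, 8759.6 and 9273 normalized units in LPD lines 1, 4, 6, 20 and 40. In NPD lines 8, 15, 21, 36 and 51 it was at 8097, 8977, 9499, 7164 and 8150.0. The highest and the lowest line, 21 and 36, were both NPD lines, and the groups overlapped. The difference was 0.07 ± 0.08 (log2, SE), with an unadjusted limma p of 0.407 and an adjusted p of 0.994. The exact permutation p was 0.381, and the difference was 0.02 without NPD line 36.

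Insig1, the sterol-responsive retention factor of SREBP-2, was at 4191, 3460.5, 2949, 3271 and 4636 in LPD lines 1, 4, 6, 20 and 40. The NPD lines 8, 15, 21, 36 and 51 had 2116, 3473, 3957, 2326 and 3149. Its lines spanned 2.19-fold, the widest range of the 8 genes, with the lowest values in NPD lines 8 and 36 and the highest in LPD lines 40 and 1. The difference of 0.32 ± 0.18 was within this spread (limma p = 0.0934, adjusted p = 0.994), with an exact permutation p of 0.183. Its 95% interval ran from -0.06 to 0.70. Without NPD line 21, the highest of the NPD lines, it was 0.43 with an unadjusted limma p of 0.0272 and an adjusted p of 0.964, which lay between 0.895 and 1.000 over the alternatives run. The difference was 0.20 without NPD line 8 and 0.24 without LPD line 40 or NPD line 36.

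Hmgcs1 encodes the cytosolic synthase that joins acetyl-CoA to acetoacetyl-CoA at the entry to the mevalonate pathway. It was at 6399, 6029.8, 7777, 7710.0 and 9738 in LPD lines 1, 4, 6, 20 and 40 and at 6436, 4967, 7769.7, 5341 and 7506 in NPD lines 8, 15, 21, 36 and 51. LPD line 40 was highest and NPD lines 15 and 36 lowest, while LPD lines 1 and 4 were below 3 of the NPD lines. The difference was 0.24 ± 0.15 (limma p = 0.149, adjusted p = 0.994), with an exact permutation p of 0.230. Without LPD line 40 it was 0.14.

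Idi1 encodes the isomerase that interconverts both isomers of the building block of isoprenoids. Its values were 2908, 2549, 2684, 3503 and 3674 in LPD lines 1, 4, 6, 20 and 40 and 2596, 2952, 3277, 2244 and 2820.3 in NPD lines 8, 15, 21, 36 and 51. LPD lines 20 and 40 were above every NPD line, and LPD lines 1, 4 and 6 lay among the NPD lines. The difference of 0.14 ± 0.13 had a limma p of 0.296 (adjusted p = 0.994) and an exact permutation p of 0.341. Without LPD line 40 it was 0.07, and without NPD line 36 it was 0.06.

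Fdft1, or squalene synthase, commits farnesyl diphosphate to sterols. In LPD lines 1, 4, 6, 20 and 40 it was at 2652, 2492, 2820.3, 2907 and 3669, and in NPD lines 8, 15, 21, 36 and 51 at 2315, 2595, 3006, 2321 and 2824. Only LPD line 40 was above all NPD lines. The difference was 0.15 ± 0.11 (limma p = 0.213, adjusted p = 0.994), with an exact permutation p of 0.262, and it was 0.06 without LPD line 40.

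Sqle, squalene epoxidase, carries out the oxidation before ring closure and is a known point of control of the pathway. It stood at 2902, 2965, 3449.6, 4053 and 4083 in LPD lines 1, 4, 6, 20 and 40, and at 3119, 3341, 3386, 2754 and 3204 in NPD lines 8, 15, 21, 36 and 51. LPD lines 6, 20 and 40 were above every NPD line, while LPD lines 1 and 4 were above NPD line 36 alone. The difference was 0.13 ± 0.11 (limma p = 0.262, adjusted p = 0.994), with an exact permutation p of 0.302. Without LPD line 40 it was 0.07.

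Lss, lanosterol synthase, closes the sterol rings. It was at 2125, 2063, 1986, 1665 and 1785 in LPD lines 1, 4, 6, 20 and 40, a mean of 1925 ± 194 (SD, n = 5). In NPD lines 8, 15, 21, 36 and 51 it was at 1491, 1393, 1556, 1620.4 and 1578, a mean of 1528 ± 88.7 (SD, n = 5). Every LPD line was above every NPD line, the closest pair being LPD line 20 and NPD line 36. The difference was 0.33 ± 0.09 on the log2 scale, with a 95% interval from 0.14 to 0.52 and an unadjusted limma p of 0.00261. The adjusted limma p was 0.551. The exact permutation p was 0.00794, the smallest that 5 lines against 5 can give. Leaving out 1 line at a time left the difference between 0.29 and 0.38, and without both LPD line 4 and NPD line 15 it was 0.27. Its adjusted limma p was between 0.298 and 1.000 over all alternatives run.

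Cyp51, lanosterol demethylase, acts on the product of Lss. It was at 3458, 3395, 3477, 4447 and 4225 in LPD lines 1, 4, 6, 20 and 40, a mean of 3800.3 ± 496 (SD, n = 5). The values in NPD lines 8, 15, 21, 36 and 51 were 2415, 3013, 3412, 2785 and 2987, a mean of 2923 ± 363 (SD, n = 5). In 4 LPD lines it was above all NPD lines, and LPD line 4 was just below NPD line 21. The difference was 0.38 ± 0.11 (95% interval 0.14 to 0.62), with an unadjusted limma p of 0.00467, an adjusted p of 0.665 and an exact permutation p of 0.0159. It lay between 0.31 and 0.44 when 1 line was left out at a time, and was 0.43 without both LPD line 4 and NPD line 15.

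**Figure D2:**
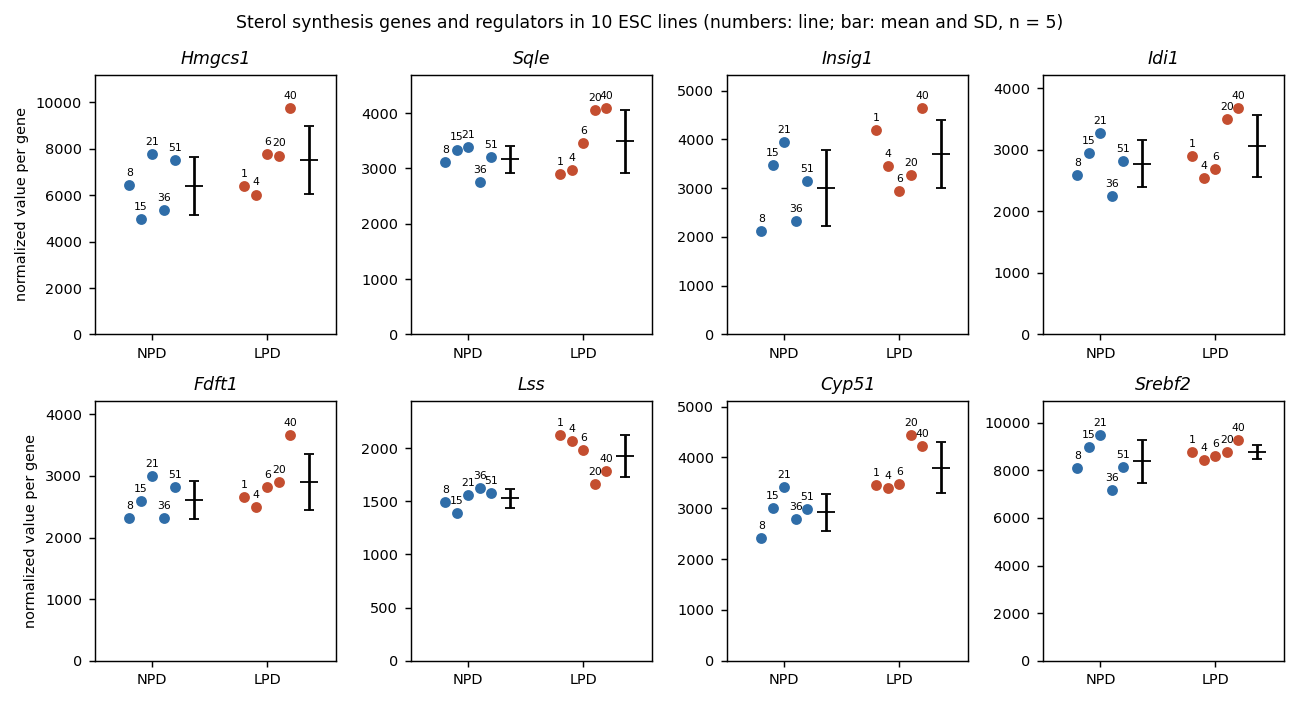
Normalized value of the 8 genes (vertical axes, from 0) in each ESC line, with the line number above the point and the mean and SD (n = 5) of each diet beside the points. Lss is the gene whose LPD lines all lie above all NPD lines, and in Cyp51 only LPD line 4, at 3395, lies below an NPD line. LPD line 40 is the highest line for Hmgcs1, Sqle, Insig1, Idi1 and Fdft1.

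Counted together, 2 of 8 genes were higher in LPD at an unadjusted limma p under 0.05, against 2.84% of the 14354 genes tested, and 0 were lower. By the exact permutation test, on the same values, the same 2 genes were under 0.05. The share of all genes under 0.05 by that test was not computed. Groups did not overlap for 1 of 8, with LPD above, against 0.523% of all genes. The log2 fold change was above 0 for 8 of 8, where 50.5% of all genes lay above 0. At an adjusted p under 0.1, limma called 0 of the 8 genes and 0 of all genes, among which 721 had an unadjusted p under 0.05. The median log2 fold change of the 8 genes was 0.19, beside 0.00 over all genes tested. It was 0.16 and 0.15 after rescaling the lines to the same total and after quantile normalization. Apart from Lss, the genes were positively correlated among lines, to differing degrees, as described further on. The 8 genes are therefore not 8 separate observations of the diet.

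Of the other sterol synthesis enzymes, 13 genes from Acat2 to Dhcr7, 1 was higher in LPD at an unadjusted limma p under 0.05 and 0 were lower. Over all 14354 genes tested, 2.84% were higher at that threshold, and a count of 1 in so short a list cannot be told from that share. The gene was Sc5d, the sterol desaturase near the end of the pathway, at 0.30 ± 0.12 (limma p = 0.0310, adjusted p = 0.952, exact permutation p = 0.0635). It did not pass by limma when LPD line 6, 20 or 40 or NPD line 8 or 15 was left out. The median log2 fold change of these 13 genes was 0.08, 10 above 0 and 3 below. It was 0.01 without LPD line 40.

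**Figure D3:**
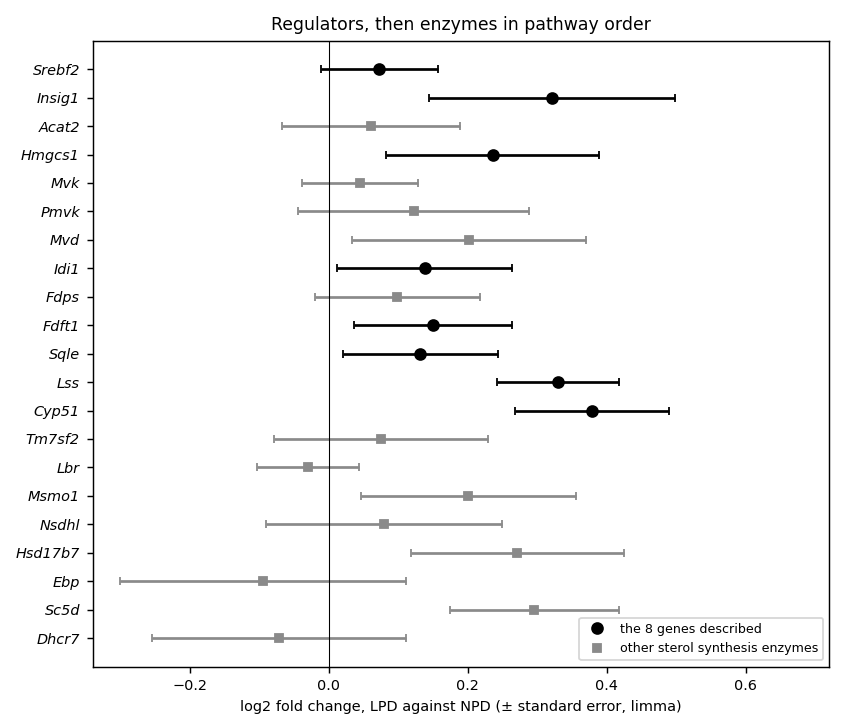
Log2 fold change of LPD against NPD lines (horizontal axis, limma, bars ± standard error) for the regulators and then the enzymes in pathway order. Black circles are the 8 genes described and grey squares 13 other sterol synthesis enzymes. Lss, Cyp51 and Sc5d, at 0.33, 0.38 and 0.30, are the genes here with an unadjusted p under 0.05. Their adjusted limma p was 0.551, 0.665 and 0.952.

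No gene of the remaining lists passed an unadjusted limma p of 0.05. For SREBP processing and sterol sensing (9 genes) the median was -0.01. The smallest p belonged to Rnf139, a ubiquitin ligase of the endoplasmic reticulum, at 0.22 (limma p = 0.0512, exact permutation p = 0.0238), and to Erlin2, at 0.18 (limma p = 0.0784, exact permutation p = 0.0952). Rnf139 alone of these lists was under 0.05 by the exact test, and its adjusted limma p was 0.994. For sterol uptake and intracellular transport (8 genes, 7 above 0) the median was 0.08, and the smallest p belonged to Mylip, a ligase that degrades lipoprotein receptors, at -0.50 (limma p = 0.184, exact permutation p = 0.278) and Stard4, a sterol carrier, at 0.15 (limma p = 0.208, exact permutation p = 0.214).

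The list for the oxysterol receptors LXR and sterol efflux includes the receptor genes and is not a list of LXR targets alone. Of its 6 genes 5 were tested, with a median of 0.19, which rested on few genes and lines. It was 0.07 with no filter, 0.05 without NPD line 15, 0.03 without NPD line 21 and -0.07 without both LPD line 4 and NPD line 15. The smallest p belonged to Cyp27a1, at 0.37 (limma p = 0.216, exact permutation p = 0.198), and to Nr1h2, which encodes LXR beta, at -0.09 (limma p = 0.319, exact permutation p = 0.222). The non-sterol isoprenoid branch, 10 genes that use the same precursors for prenylation, dolichol and ubiquinone, had a median of 0.03, which was -0.01 when lines were rescaled to the same total and -0.03 without both LPD line 4 and NPD line 15. There the smallest p belonged to Ggps1, at 0.20 (limma p = 0.175, exact permutation p = 0.214), and Rabggtb, at -0.12 (limma p = 0.175, exact permutation p = 0.151). Fatty acid synthesis and desaturation, the pathway driven mainly by the sister factor SREBP-1, had 4 of 12 genes above 0 and a median of -0.03. Me1, which supplies NADPH, had the smallest limma p, 0.120, at 0.21 (exact permutation p = 0.135).

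Markers of other cell types were read in the same lines. Summed fibroblast markers (Col1a1, Col1a2, Col3a1, Col6a3, Postn, Lum, Dcn, Thy1, Pdgfrb and Fbn1) were at 393 to 3537 in the LPD lines and 499 to 6021 in the NPD lines. They were highest in NPD line 15, LPD line 6 and NPD line 8. Of the 8 fibroblast markers tested, 7 had a fold change below 0 and 0 passed an unadjusted p of 0.05 by limma or by the exact permutation test. Lum was at 0 in 7 lines, and Dcn in 4. Summed primitive endoderm markers (Gata4, Gata6, Sox17, Sox7, Foxa2, Dab2, Pdgfra and Lama1) were at 1712 to 11490 in the LPD lines and 967 to 8728 in the NPD lines, with 8 of 8 fold changes above 0 and 0 passing by limma or by the exact test. Their part in the differences of Lss and Cyp51 was not tested.

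The lines of each diet also differed among themselves, and 7 of the 8 genes were positively correlated across them, some pairs only weakly. LPD line 40 exceeded each gene's median over lines for 8 of 8 genes, with a median log2 deviation of 0.34. NPD line 36 was at or below it for 8 of 8, with a median deviation of -0.28, and NPD line 8 likewise, at -0.14. LPD line 20 (0.12) and NPD line 21 (0.13) were each above the median for 7 genes. LPD line 4, at -0.09, was above it for 2. LPD lines 1 (0.02) and 6 (0.04) and NPD lines 15 (-0.02) and 51 (-0.04) were close to the median. The median deviation was therefore above 0 in every LPD line but line 4 and below 0 in every NPD line but line 21.

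**Figure D4:**
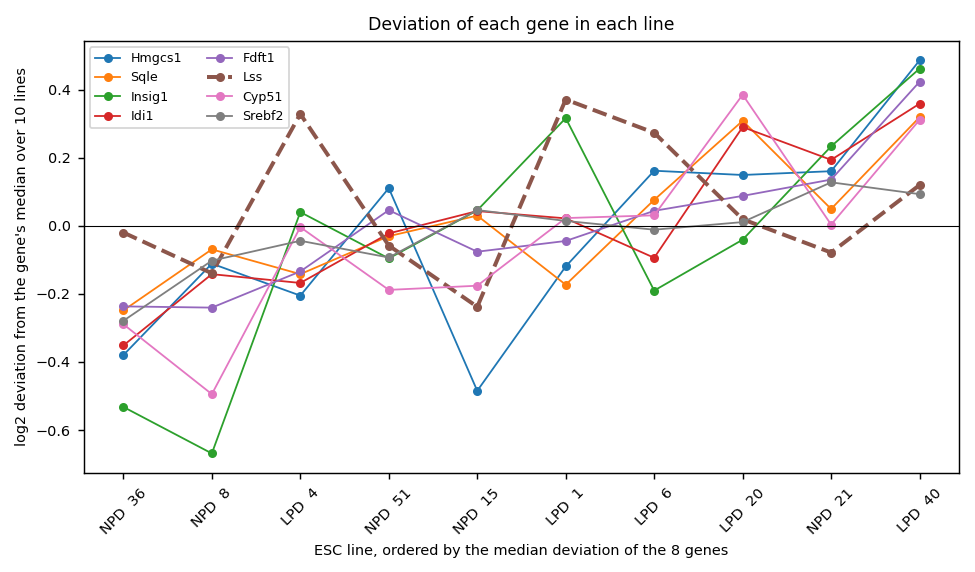
Log2 deviation of each of the 8 genes from its own median over the 10 lines (vertical axis), by ESC line ordered by the median deviation of the 8 genes. NPD lines 36 and 8 are lowest and LPD line 40 highest. Lss, dashed, is highest in LPD lines 1, 4 and 6 and does not follow the order of the other genes.

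Over the 10 lines, the 28 pairs of genes had a median Pearson r of 0.70, between -0.13 and 0.87, and a median Spearman rho of 0.62. By permutation with adjustment over the 28 pairs, 13 pairs passed 0.05 for r and 3 for rho. The same was not computed for pairs of other genes. Neither the median r nor these counts are therefore shown to be particular to the 8 genes. The 21 pairs without Lss had r between 0.43 and 0.87, and all pairs that passed were among them. The weakest were Sqle with Insig1 (r = 0.43, rho = 0.32) and Hmgcs1 with Insig1 (r = 0.44, rho = 0.21). Neither passed by permutation (adjusted p = 0.278 for r in both). Sqle and Idi1 were the closest, with r = 0.87 (permutation p = 0.00125, adjusted p = 0.0147) and rho = 0.78 (p = 0.0105, adjusted p = 0.0510), and r = 0.67 without LPD lines 20 and 40. Insig1 and Srebf2 had r = 0.80 (permutation p = 0.00512, adjusted p = 0.0239) and the highest rho, 0.87 (p = 0.00208, adjusted p = 0.0343), with r = 0.67 without NPD lines 8 and 36. When the pair of lines farthest from the median was left out of each correlation, the median r of the 28 pairs was 0.57.

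The pairs with Lss were mostly weaker. Its 7 pairs had r between -0.13 and 0.43, with a median of 0.13, and none passed by permutation for r or rho. Closest to it was Cyp51, at r = 0.43 (permutation p = 0.219, adjusted p = 0.278) and rho = 0.55 (p = 0.105, adjusted p = 0.164), with r = 0.53 without LPD lines 1 and 4. The r of 0.43 over all lines was close to the weakest of the pairs without Lss. With lines rescaled to the same total, Lss with Cyp51 had r = 0.33, above Hmgcs1 with Srebf2 at 0.22. The difference between Lss and the other genes was not itself tested. Lss also had little spread within a diet, where 10.6% of 10455 genes (mean of 100 or more) had a lower SD. For Srebf2 this share was 8.93%, for Cyp51 37.4%, and for Insig1, the most variable of the 8, 78.9%.

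For some of the genes, the joint movement went with the scale of the lines. The total of the deposited values differed up to 1.12-fold between lines. Of the 8 genes, 5 correlated with it at a permutation p, adjusted over the 8, under 0.05 for both r and rho. They were Hmgcs1, Sqle, Idi1, Fdft1 and Cyp51. The share of all genes that did so was not computed, so this is not shown to be particular to these genes. For Sqle r was 0.91 (permutation p = 4.10e-04, adjusted p = 0.00328) and rho 0.85 (p = 0.00279, adjusted p = 0.0112), with r = 0.77 without LPD lines 20 and 40. Cyp51 had r = 0.80 (permutation p = 0.00478, adjusted p = 0.0127) and rho = 0.75 (p = 0.0176, adjusted p = 0.0310), but r = 0.47 without those lines. For Lss r was -0.06 (permutation p = 0.871, adjusted p = 0.871) and rho 0.10 (p = 0.785, adjusted p = 0.785). Insig1, at r = 0.46 (permutation p = 0.180, adjusted p = 0.205), and Srebf2, at r = 0.57 (permutation p = 0.0848, adjusted p = 0.113), did not pass either. Rescaling all lines to the same total lowered the median r of the 28 pairs to 0.54, while Insig1 with Srebf2 was at r = 0.74 there. The part of the line totals in the joint movement was not tested.

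**Figure D5:**
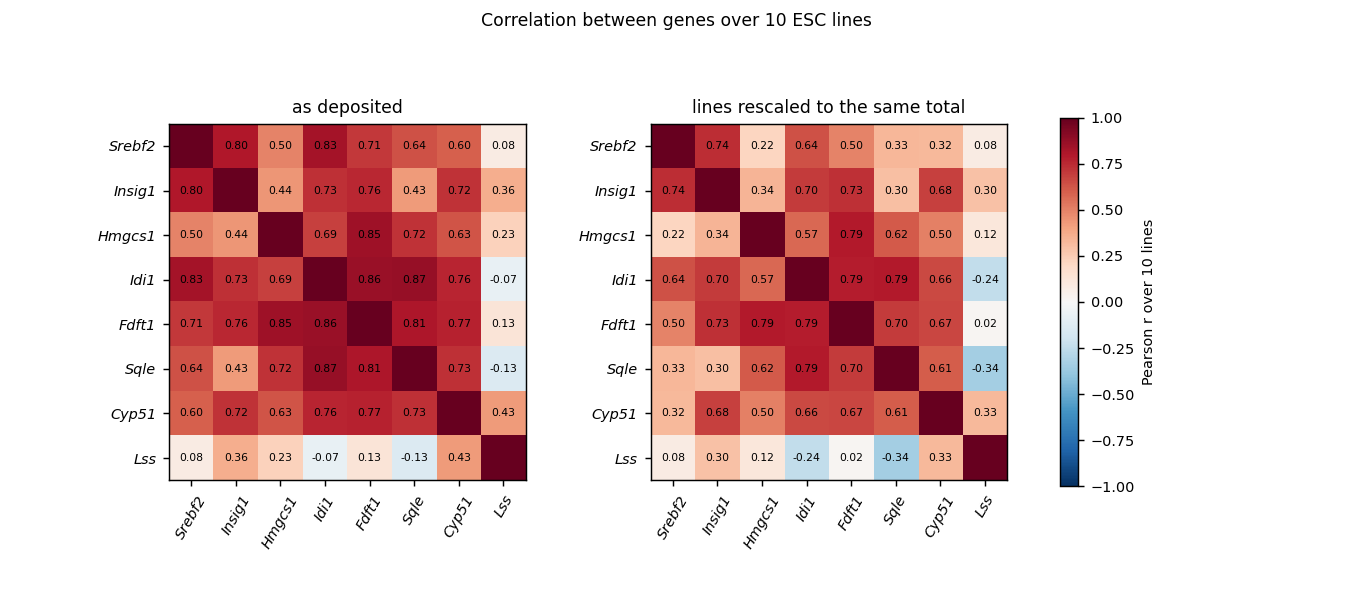
Pearson r between each pair of the 8 genes over the 10 ESC lines (colour and printed value), for the values as deposited (left) and with all lines rescaled to the same total (right). Among 7 genes all pairs are above 0 on both scales, while the pairs with Lss range from -0.13 to 0.43 as deposited.

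To ask which other genes followed the same order of lines, r was taken with the mean z-score of the 8 genes for 10447 genes with a mean of at least 100. It is given as a description over 10 lines that share normalization and totals. The highest values belonged to Cox6c (0.97), Ndufa4 (0.95), Atp5d (0.95), Rps20 (0.95), Plpp2 (0.94), Tex264 (0.94), Rpl27a (0.94), Rpl4 (0.94), Rps9 (0.93) and Bri3 (0.93). With lines rescaled to the same total, these 10 genes had r between 0.87 and 0.95, with Cox6c at rank 1 and Rpl4 lowest of them, at rank 22. The lowest values belonged to Chp1 (-0.96), Ehmt1 (-0.94), Rnf125 (-0.93), Lztr1 (-0.92) and Prdm15 (-0.91).

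The same r was read for the other enzymes of sterol synthesis. Over these 13 genes the median r was 0.58, beside 0.04 over all genes compared, and 9 of them (69.2%) were above 0.5, where 16.8% of all genes were. With lines rescaled to the same total, the median was 0.51 and 8 of 13 were above 0.5 (61.5%, against 9.08% of all genes). Msmo1, the sterol methyl oxidase that acts after Cyp51, had r = 0.89 and rank 38 of 10447. Mvd, mevalonate diphosphate decarboxylase, had r = 0.88 and rank 50. Ebp, the sterol isomerase, had the lowest r of the 13, 0.24. Without LPD line 40 the median of the 13 was 0.42. The genes of SREBP processing and sterol sensing had a median r of -0.36, which was -0.06 without LPD line 40.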

How the data were processed

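The 10 libraries were poly(A)-selected RNA of ESC lines. According to the paper and the labels, the authors filtered reads for adaptors (cutadapt) and base quality, then estimated transcript abundance with Salmon (GRCm38), with sleuth 0.30.0 as their test. The table deposited by the authors gives the signal of each gene, which is an estimated count normalized by the authors with DESeq2, as its name states. The summing of transcripts to genes, and whether reads were counted by strand, are not given in the sources used here. All 10 columns were matched to lines by label. Whole reads were not recovered, so no count model was used.

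Symbols came from GENCODE M21 (GRCm38). On the scale of log2(value + 1), limma 3.58.1 (R 4.3.3; lmFit and eBayes, trend on, diet as the sole term) was run over 14354 genes, those whose mean reached 10, and p was adjusted over all of them by Benjamini-Hochberg. Thresholds were 0.05 unadjusted and 0.1 adjusted. The fit was tested on simulated data. Single genes were also tested by two-sided exact permutation of mean log2 values over 252 assignments, and correlations by 100000 permutations, two-sided. Intervals and p-values measure the spread between lines. Other steps used Python 3.11.15 with scipy 1.17.1, pandas 2.3.3, numpy 2.4.6 and matplotlib 3.10.9.

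The genes, lists, tests and motifs were chosen with earlier results of these data known. The rule named the 8 genes in full. From each list it named the genes under p = 0.05 or, with none, the 2 of smallest p, and it named the 10 genes of highest and the 5 of lowest correlation with the 8. Of the genes the lists first held, 5 are not reported here, nor is 1 gene that the rule would name. Tried besides were a pseudocount of 0.5 or 10, no filter, a mean of at least 100, the same total, quantile normalization, limma without trend, with robust eBayes, array weights or depth as a covariate, exact Mann-Whitney tests, and each line left out. Leaving out LPD line 4 together with NPD line 15 was chosen after seeing the data.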

Additional observations from a re-analysis of the deposited data

How the results depend on the processing

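The direction of all 8 genes and their side of an unadjusted p of 0.05 stayed the same in 183 of 184 combinations of a gene and an alternative. The exception was Insig1, under 0.05 without NPD line 21, at 0.43, with a range of 0.20 to 0.43 when 1 line was left out at a time. Over all alternatives run, Lss lay between 0.27 and 0.38 and Cyp51 between 0.31 and 0.45. With depth as a covariate they were 0.28 and 0.45. The median of the 8 fold changes was lowest, 0.10, without LPD line 40 and highest, 0.26, when NPD line 21 was left out. The number of the 8 genes under 0.05 was 2 or 3. Among the genes of the other pathway lists, 1 was under 0.05, Sc5d, higher in LPD, where 721 of all 14354 genes tested were under 0.05. The count in these lists, of both directions, was 2 with a mean of at least 100, 2 without a trend and 0 with array weights. It was 2 with depth as a covariate (1 of them lower in LPD) and 3 without both LPD line 4 and NPD line 15. It ranged from 0 to 4 when 1 line was left out. It was 4 without LPD line 4 (all higher), 3 without LPD line 1 (1 of them lower) and 2 without NPD line 21 (1 of them lower). It was 2 without NPD line 36 or 51, 1 without LPD line 40 (lower, with Sc5d lost), and 0 without LPD line 6 or NPD line 8 or 15. The cause was not tested. The median r of the 28 pairs was 0.54 with lines rescaled to the same total and 0.53 after quantile normalization, where the total is set equal by construction, and 0.57 to 0.75 when 1 line was left out. No paired analysis was possible because the diets share no line numbers. LPD line 4 is the shallowest library, 1 read being worth 2.90 normalized units there, which is small beside the values of the 8 genes.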
